A study of Macaca fascicularis with 11 samples.

Results

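KHDC3L, OOEP, NLRP2, NLRP7, KHDC1L and DPPA5 were followed across the cell lineages, days and genotypes of cultured cynomolgus monkey (Macaca fascicularis) embryos. These 6 genes are rows of a matrix of 19367 genes and were chosen by name, from the symbols that the study's supplementary tables give to Ensembl identifiers: ENSMFAG00000041622 (KHDC3L), ENSMFAG00000044288 (OOEP), ENSMFAG00000029871 (NLRP2), ENSMFAG00000003765 (NLRP7), ENSMFAG00000034121 (KHDC1L) and ENSMFAG00000045714 (DPPA5). All 6 were found and all 6 passed the filter on low counts in every comparison. Blastocysts had been thawed, freed of the zona pellucida and grown on plates without a mother until Day 10, Day 12 or Day 14, and single cells were sequenced with droplets at the 3′ end of transcripts. There were 6 wild-type libraries from 12 embryos and 5 ISL1 mutant libraries from 11 embryos, with 1 to 3 embryos pooled in each. The wild-type group has 2 libraries per day, named B1 and B2 after the batch in the labels, and the mutant group has 1 library at Day 10 and 2 at Day 12 and Day 14. Mutant embryos were injected as zygotes with Cas9 and guide RNAs against ISL1, a transcription factor of the amnion, and are described as hypomorphic. Each is a mosaic of several edited alleles. No injected control was among the libraries, so the effect of the edit and that of the injection cannot be told apart.

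The products of KHDC3L and OOEP belong, with members of the NLRP family, to the subcortical maternal complex, an assembly that the oocyte lays down beneath its membrane and that the cleaving embryo needs. Maternal variants of NLRP7 and KHDC3L are known in women as causes of recurrent hydatidiform mole, in which imprints are not set in the oocyte, and variants of NLRP2 have been linked to imprinting disorders. KHDC3L, OOEP, KHDC1L and DPPA5 encode small proteins of one family of KH-domain genes, and DPPA5 is a familiar marker of pluripotent cells, in human cells of the naive state in particular. By the stages studied here the embryonic genome has long been active, so that transcripts are counted in descendants of the inner cell mass and of the trophectoderm and not in eggs. OOEP, KHDC3L, DPPA5 and KHDC1L lie close together on chromosome 4, and NLRP7 and NLRP2 are neighbours on chromosome 19, in the order of genes of the RefSeq annotation of the T2T-MFA8v1.1 assembly, which is not the build of the counts. Paralogs of this kind can share reads, and how such reads were split is not known here.

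A UMI is a molecular barcode, so that a count stands for a captured molecule. The libraries held between 36654977 and 164808415 UMIs, and the median cell between 10916 and 142180 UMIs. Cell types had to be rebuilt here, by clustering each day on its own without the 6 genes and naming the clusters from lists of other markers. Epiblast and its derivatives (Epi-derived cells, with POU5F1 and L1TD1) numbered 14 to 705 per library, endoderm-like cells (APOA1, TTR) 11 to 134, trophoblast-like cells (CGA, PGF) 157 to 6309 and extraembryonic mesenchyme-like cells (COL3A1, HGF) 59 to 2482 in the 8 libraries that had them. All 8 Epi-derived and all 12 endoderm markers stood above 10 CPM in their own class in each of the 11 libraries. Among 33205 distinct barcodes 124 occurred in more than 1 library. ISL1 in amnion-like cells of Day 14 was counted at 148 and 242 CPM in wild-type and at 218 and 195 CPM in mutant libraries. The counts come from the 3′ end and not from the edited stretch near the start of the protein, so they do not check the edit.

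KHDC3L and DPPA5 were transcripts of Epi-derived cells. Levels are given as CPM, the UMIs of a gene summed over the cells of 1 class in 1 library and scaled to 1000000 UMIs of that sum. In Epi-derived cells of the B1 and B2 libraries, KHDC3L stood at 12114 and 7992 CPM at Day 10, at 9514 and 4683 CPM at Day 12 and at 5672 and 1366 CPM at Day 14 in wild-type embryos. The mutant libraries gave 6548 CPM at Day 10, 5813 and 2240 CPM at Day 12 and 1593 and 1623 CPM at Day 14. Endoderm-like cells came next, with a median of 125 CPM and a highest value of 595 CPM, then trophoblast-like cells with a median of 12.8 CPM (0.233 to 93.3 CPM) and extraembryonic mesenchyme-like cells with a median of 3.37 CPM (0.270 to 31.4 CPM). Epi-derived cells were highest in 11 of 11 libraries and their lowest value, 1366 CPM, lay above every value of the other lineages, while the ranges of those other lineages overlapped one another. In the wild-type Day 14 B2 library no KHDC3L UMI was counted in 35 endoderm-like cells.

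DPPA5 had the same order. Its level in Epi-derived cells was 3432 and 3039 CPM at Day 10, 3796 and 1795 CPM at Day 12 and 2139 and 1193 CPM at Day 14 in wild-type embryos. In mutants it was 2986 CPM at Day 10, 2401 and 1407 CPM at Day 12 and 1411 and 1231 CPM at Day 14. Endoderm-like cells held 14.4 to 196 CPM, trophoblast-like cells 0.388 to 28.1 CPM and extraembryonic mesenchyme-like cells 0.225 to 23.5 CPM. Again the Epi-derived values of all 11 libraries lay above all others, and those of trophoblast-like and extraembryonic mesenchyme-like cells overlapped.

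**Figure D1:**
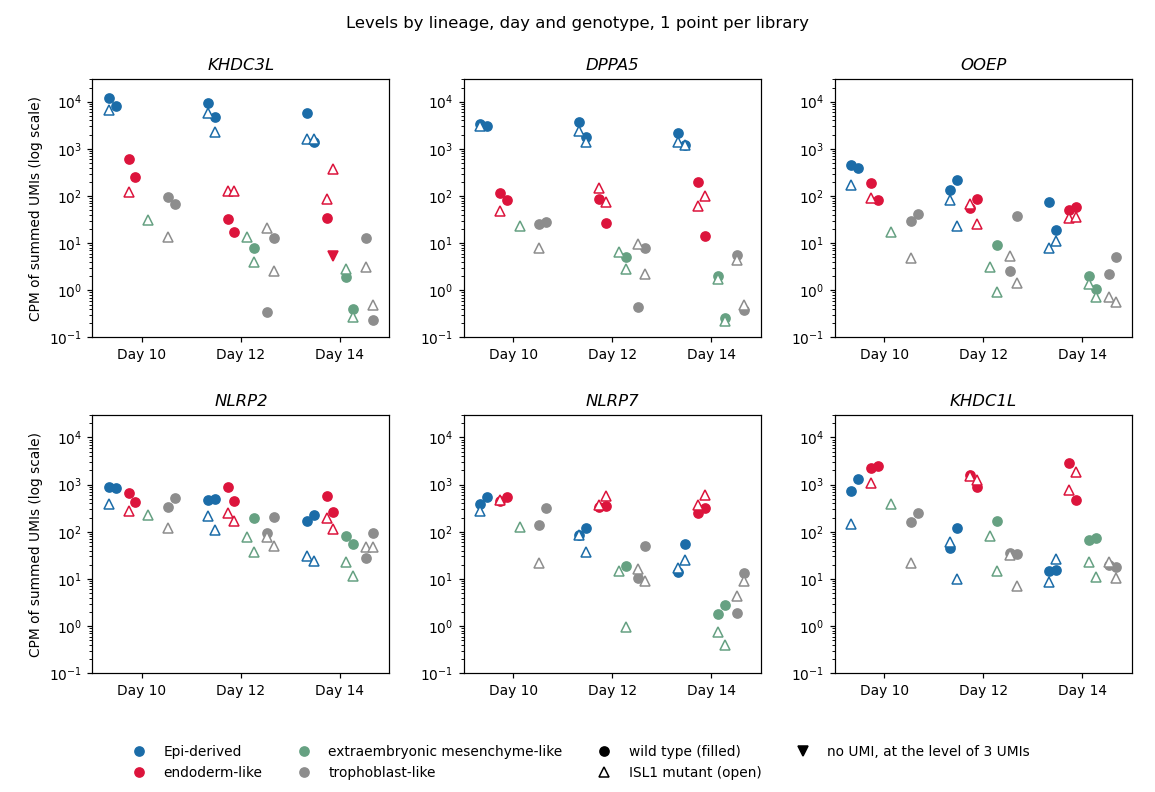
Levels of the 6 genes in CPM of summed UMIs (log scale) by day, with 1 point for each library and lineage. Circles are wild-type and triangles ISL1 mutant libraries, and the 1 inverted triangle is a class with no UMI, drawn at the level of 3 UMIs. For KHDC3L and DPPA5 the Epi-derived points lie above all others on every day, and for KHDC1L the endoderm-like point is the highest within each library.

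Differences between lineages were tested within libraries, with edgeR on the summed counts and the library as a block. At Day 10, KHDC3L was higher in Epi-derived cells than in the mean of endoderm-like and trophoblast-like cells by 5.80 on the log2 scale (SE 0.83, adjusted p = 2.163e-05), and DPPA5 by 5.95 (SE 0.71, adjusted p = 2.573e-06). OOEP was higher by 2.60 (SE 0.46, adjusted p = 2.056e-04). NLRP2, NLRP7 and KHDC1L did not pass, with differences of 0.88, 0.49 and 0.47. Thus 3 of 6 passed, all higher, against 22.9% of all genes tested, in either direction. At Day 14 the mean of the other lineages includes the extraembryonic mesenchyme-like cells, and KHDC3L was higher by 10.07 (SE 0.89), DPPA5 by 8.53 (SE 0.71) and OOEP by 2.80 (SE 0.50), while KHDC1L was lower by a log2 difference of -3.11 (SE 0.68, adjusted p = 0.00133). That is 4 of 6 genes against 21.9% of all genes. The OOEP and KHDC1L calls were lost when the Day 14 B1 library was left out, with differences of 1.44 (adjusted p = 0.212) and -2.49 (adjusted p = 0.0551).

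KHDC1L, in contrast, was highest in endoderm-like cells in 11 of 11 libraries. The wild-type values there were 2296 and 2471 CPM at Day 10, 1585 and 886 CPM at Day 12 and 2856 and 473 CPM at Day 14. Mutant libraries held 1067 CPM at Day 10, 1495 and 1273 CPM at Day 12 and 776 and 1886 CPM at Day 14. The days and the genotypes overlapped, and the 2 wild-type Day 14 libraries bracketed all the others. In Epi-derived cells KHDC1L reached 720 and 1293 CPM in the wild-type Day 10 libraries. It stood between 8.55 and 148 CPM in every other library, the mutant Day 10 one included. Its median over single Epi-derived cells was 36.5 CPM in that mutant library, against 692 and 663 CPM in the wild-type ones of that day. This difference rests on 1 mutant library and was not tested. Extraembryonic mesenchyme-like cells had a median of 69.7 CPM and trophoblast-like cells one of 22.5 CPM, with overlapping ranges.

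NLRP7, a NOD-like receptor family member, was highest among the named lineages in endoderm-like cells in 10 of 11 libraries. In both wild-type Day 10 libraries the clusters that received no name stood higher still, at 546 and 726 CPM. It stood at 458 and 542 CPM at Day 10, 330 and 351 CPM at Day 12 and 250 and 325 CPM at Day 14 in wild-type endoderm-like cells, and between 363 and 599 CPM in mutant ones. Its Epi-derived level at Day 10 was 384 and 547 CPM, inside the range of the endoderm-like cells, and at Day 14 it was 14.1 and 54.4 CPM. Trophoblast-like cells had 141 and 312 CPM at Day 10 and 1.88 and 13.7 CPM at Day 14. The endoderm-like values of Day 14 thus lay above those of all other lineages of that day.

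NLRP2 and OOEP were highest in either of these lineages. Among the named lineages NLRP2 was highest in endoderm-like cells in 7 libraries and in Epi-derived cells in 4. It was not confined to them, with 329 and 514 CPM in wild-type trophoblast-like cells of Day 10 and a median of 93.4 CPM (27.6 to 514 CPM) over trophoblast-like cells of all libraries, a median of 66.6 CPM (11.8 to 227 CPM) in extraembryonic mesenchyme-like cells, and 894 and 757 CPM in the unnamed clusters of wild-type Day 10. It stood in wild-type endoderm-like cells at 649 and 418 CPM at Day 10, 896 and 457 CPM at Day 12 and 580 and 265 CPM at Day 14, and in mutant ones between 113 and 281 CPM. In Epi-derived cells the wild-type values were 897 and 848 CPM at Day 10, 468 and 497 CPM at Day 12 and 172 and 226 CPM at Day 14, and the mutant ones 394 CPM, 217 and 109 CPM, and 30.6 and 24.1 CPM. At Day 12 the mutant Epi-derived values lay below both wild-type ones, as for 16.6% of all genes. The make-up of the Epi-derived cells differed between genotypes. At Day 12 amnion-like cells were 75 of 705 and 113 of 283 of them in mutant libraries and 22 of 151 in wild-type B2. The 14 Epi-derived cells of wild-type B1, from 1 embryo, were all epiblast-like. At Day 14 amnion-like cells were 138 of 483 and 50 of 93 in mutant and 37 of 567 and 11 of 113 in wild-type libraries. The part of this in the levels was not tested. OOEP, whose product is needed for the maternal complex in mouse eggs, was highest in Epi-derived cells in 7 libraries and in endoderm-like cells in 4. Epi-derived cells held 451 and 383 CPM at Day 10, 133 and 217 CPM at Day 12 and 73.9 and 18.9 CPM at Day 14 in wild-type embryos, and 173 CPM, 82.5 and 22.9 CPM, and 7.84 and 11.1 CPM in mutants. In endoderm-like cells OOEP ranged from 25.0 to 187 CPM over all 11 libraries, in trophoblast-like cells from 0.557 to 42.1 CPM and in extraembryonic mesenchyme-like cells from 0.721 to 17.3 CPM.

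At Day 14, KHDC1L was higher in wild-type endoderm-like cells than in the mean of the other lineages by 5.56 on the log2 scale (SE 0.53, adjusted p = 1.136e-07) and NLRP7 by 5.32 (SE 0.52, adjusted p = 1.609e-07). OOEP was higher by 2.86 (SE 0.55, adjusted p = 6.435e-04) and NLRP2 by 2.05 (SE 0.37, adjusted p = 3.088e-04). KHDC3L (-1.06) and DPPA5 (2.11, adjusted p = 0.0532) did not pass. These were 4 of 6 genes, all higher, beside 15.4% of all genes in either direction. Without the Day 14 B1 library 2 of the 6 genes passed, OOEP (3.48, adjusted p = 0.0125) and NLRP2 (1.19, adjusted p = 0.0950) being lost. With all libraries OOEP was thus called higher in both Epi-derived and endoderm-like cells of Day 14, each against the mean of the rest.

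The share of cells with a UMI gave the same picture at equal depth. Each cell was thinned to 5000 UMIs and shallower cells were left out. KHDC1L was seen in 100% (95% exact binomial interval 92.0% to 100%) and 100% (83.9% to 100%) of wild-type endoderm-like cells at Day 10 and in 100% (92.6% to 100%) and 73.5% (55.6% to 87.1%) at Day 14. In wild-type Epi-derived cells it was seen in 88.6% (82.7% to 93.0%) and 91.6% (87.3% to 94.8%) at Day 10 and in 3.20% (1.91% to 5.01%) and 5.31% (1.97% to 11.2%) at Day 14. Trophoblast-like cells, at 39.3% and 62.4% at Day 10 and 6.58% and 7.51% at Day 14, lay at or above the Epi-derived share of Day 14, which is thus no higher than that of a lineage at a low level. KHDC3L was seen in 92.0% to 100% of wild-type Epi-derived cells on all days and in 0% to 6.37% of trophoblast-like cells. There 0 of 865 thinned cells of the Day 14 B2 library allows a share of up to 0.347% at that depth, taking 3 counts as the limit of a count of 0. Before thinning, the highest of these cells stood at 38.8 CPM. Without thinning, KHDC1L was seen in 21.3% and 21.2% of the Day 14 Epi-derived cells. Intervals cover counting error only.

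**Figure D2:**
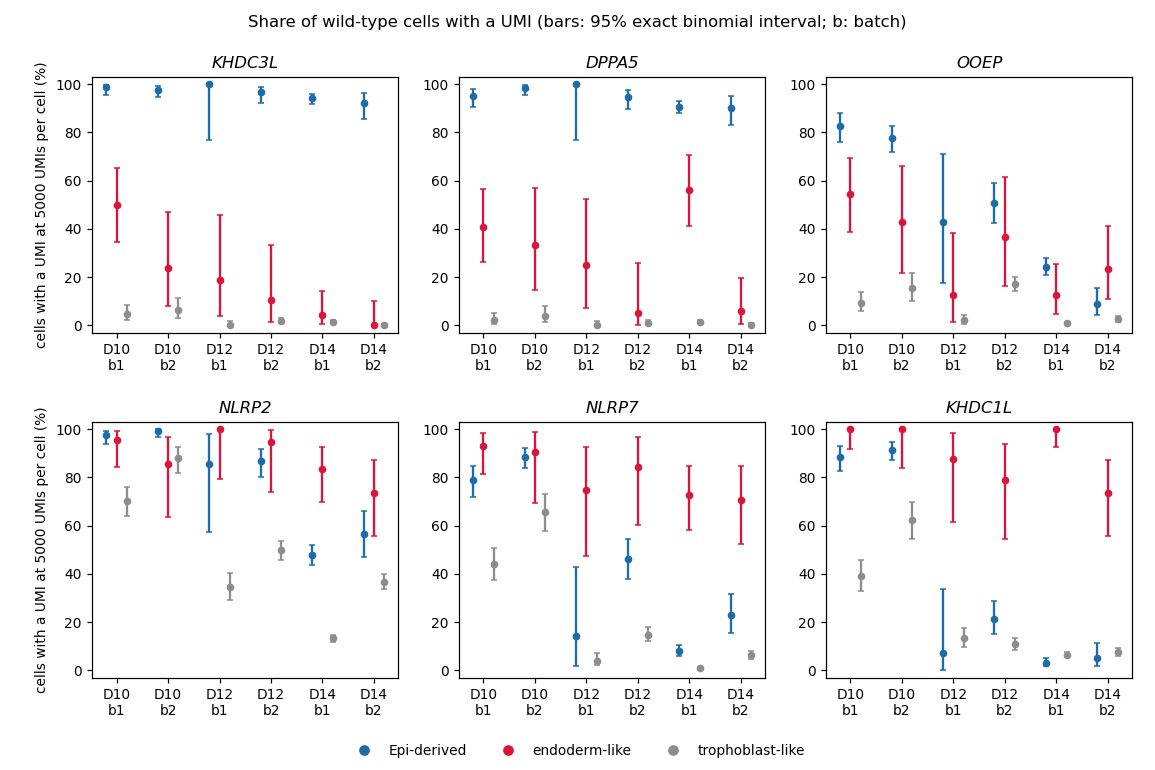
Percent of wild-type cells with at least 1 UMI after thinning to 5000 UMIs per cell, by day (D) and batch (b), for Epi-derived, endoderm-like and trophoblast-like cells, with 95% exact binomial intervals as bars. KHDC1L goes from 88.6% and 91.6% of Epi-derived cells at Day 10 to 3.20% and 5.31% at Day 14, while KHDC3L stays at 92.0% or more.

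Time was tested in wild-type epiblast-like cells, the Epi-derived cells highest in epiblast markers (94 and 153 cells at Day 10, 14 and 60 at Day 12, 194 and 25 at Day 14). KHDC1L was at 582 and 617 CPM at Day 10, 45.6 and 86.8 CPM at Day 12 and 5.40 and 3.14 CPM at Day 14. The last value lay below the 4.71 CPM that 3 UMIs would give in that library. NLRP7 was at 408 and 601 CPM at Day 10, 86.9 and 136 CPM at Day 12 and 15.8 and 31.4 CPM at Day 14. OOEP went from 556 and 506 CPM at Day 10 through 133 and 362 CPM to 38.9 and 33.0 CPM, and NLRP2 from 990 and 873 CPM through 468 and 441 CPM to 101 and 178 CPM. KHDC3L (16006 and 10993 CPM at Day 10, 9514 and 8342 CPM at Day 12, 5832 and 2404 CPM at Day 14) and DPPA5 (4616 and 3981, 3796 and 2899, 3358 and 2262 CPM) were lower by less. For 5 of the 6 genes, all but DPPA5, the libraries of the 3 days did not overlap and each day lay below the one before, as for 3.03% of all genes.

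Between Day 10 and Day 14 KHDC1L fell by 6.87 on the log2 scale (SE 0.66, adjusted p = 4.788e-04). NLRP7 fell by 4.60 (SE 0.47, adjusted p = 5.164e-04), OOEP fell by 3.85 (SE 0.45, adjusted p = 6.908e-04) and NLRP2 fell by 2.80 (SE 0.33, adjusted p = 7.288e-04). These 4 of 6 genes passed, where 1.3% of all genes did in either direction. KHDC3L (-1.71, SE 0.43, adjusted p = 0.0437) and DPPA5 (-0.61, SE 0.31, adjusted p = 0.314) did not. The paper already reports KHDC1L, NLRP7 and OOEP as falling along pseudotime from early to late epiblast of these embryos. The count beside all genes is thus a description. All 6 were lower in both batches, as were 31.9% of all genes, and Day 14 lay below Day 10 without overlap for each of them, as for 24.4% of all genes. Without the Day 14 B1 library, whose partner had 25 epiblast-like cells, the 4 calls were lost, Day 14 being 1 library. The log2 changes were then -7.64 for KHDC1L, -4.075 for NLRP7, -4.09 for OOEP and -2.47 for NLRP2. Clusters built without integration left no cell of the Day 14 B2 library in an epiblast-like class, so that Day 14 was 1 library, and 2 genes passed, KHDC1L (-6.44, adjusted p = 0.0287) and OOEP (-3.67, adjusted p = 0.0106) being lost. With DESeq2 KHDC3L passed too, which made 5, beside 238 of 9942 genes. Between Day 10 and Day 12 none of 6 passed in edgeR (0.0676% of all genes did), and 1 did with DESeq2 (58 of 9270 genes did). An unadjusted p under 0.05 was reached by 4 of the 6 and by 10.8% of all genes. The largest of these differences were -3.20 for KHDC1L (adjusted p = 0.0214) and -2.20 for NLRP7 (adjusted p = 0.0318).

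**Figure D3:**
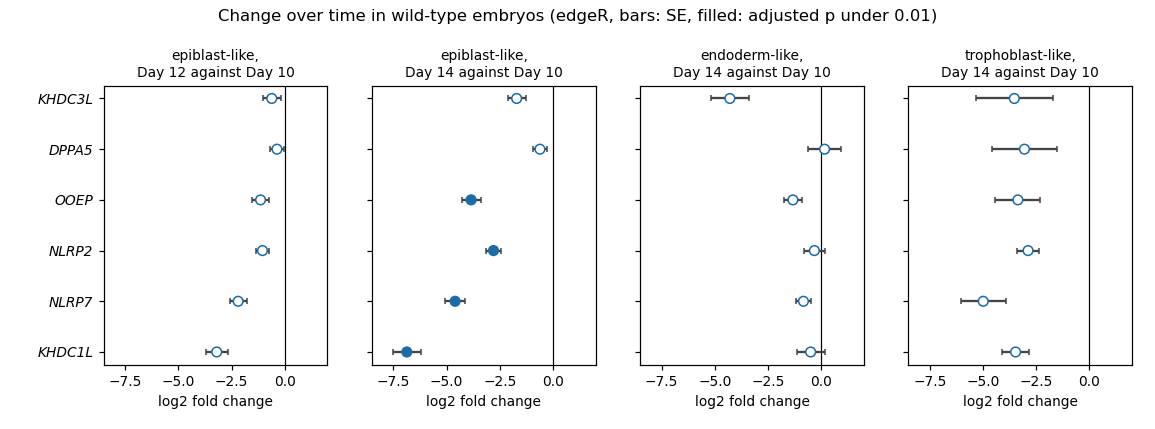
Log2 fold changes over time of the 6 genes in 3 wild-type cell classes, from edgeR on UMIs summed per library. Bars are SE, filled points have an adjusted p under 0.01, and the line marks no change. In epiblast-like cells of Day 14 OOEP, NLRP2, NLRP7 and KHDC1L are filled, between -2.80 and -6.87, and DPPA5 is nearest to 0.

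The same interval was compared in the other lineages. In wild-type endoderm-like cells (44 and 21 cells at Day 10, 48 and 35 at Day 14) none of the 6 genes passed between Day 10 and Day 14, where 0.0205% of all genes did. KHDC1L (-0.49, SE 0.66), NLRP2 (-0.32, SE 0.48), NLRP7 (-0.83, SE 0.33) and DPPA5 (0.16, SE 0.77) differed by less than 1, OOEP by -1.33 (SE 0.44) and KHDC3L by -4.29 (SE 0.89, adjusted p = 0.0886). In trophoblast-like cells again none passed, beside 0.639% of all genes. All 6 were lower in both batches, as were 31.1% of all genes, KHDC1L by -3.47 (SE 0.65, adjusted p = 0.0215), NLRP2 by -2.88 (SE 0.53, adjusted p = 0.0210) and NLRP7 by -4.99 (SE 1.05, adjusted p = 0.0285). DESeq2 called 4 of the 6 there, beside 1518 of 13813 genes, and none in endoderm-like cells, beside 35 of 7907 genes. In edgeR an unadjusted p under 0.05 was reached by 4 genes in trophoblast-like cells, beside 24.4% of all genes, and by 3 in endoderm-like cells, beside 9.64%. Without the Day 14 B2 library NLRP2 passed in trophoblast-like cells (-3.86, adjusted p = 0.00497). Whether the change over time differed between endoderm-like and Epi-derived cells was tested with an interaction term. None of 6 passed, beside 0.013% of all genes, and 1 passed with DESeq2, beside 52 of 8100 genes. An unadjusted p under 0.05 was reached by 5 of the 6 and by 8.32% of all genes. The estimates were 5.29 for KHDC1L (SE 0.99, adjusted p = 0.0710) and 3.33 for NLRP7 (SE 0.91, adjusted p = 0.188), the endoderm-like change being the less negative one.

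Of other genes of the naive and the primed state of pluripotency, 9 of 18 naive and 12 of 15 primed genes had an identifier, and none of the 11 further maternal-effect genes looked for had one. In wild-type epiblast-like cells 3 of the 9 naive genes fell between Day 10 and Day 14 and none rose: DPPA3, a maternal factor that protects methylation (-4.66, SE 0.68), DNMT3L, a cofactor of de novo methylation (-3.37, SE 0.49), and NANOG, a core pluripotency factor (-1.25, SE 0.23). Of the 12 primed genes 3 rose, VCAN (4.12, SE 0.52), CRABP2 (3.06, SE 0.36) and CD24 (1.48, SE 0.26), and none fell. The median log2 change was -2.18 for the naive and 1.38 for the primed genes, beside -0.03 for all genes tested and -3.32 for the 6 genes. Identifiers came only from the study's supplementary tables on these same cells, which include genes that mark cell types or change over time. The paper reports DNMT3L as falling and VCAN, CRABP2 and CD24 as rising from early to late epiblast. The lists were thus not independent of these changes, and their medians beside all genes are descriptions and no test. At Day 14, DPPA3 (5.74, SE 0.63) and the surface peptidase DPP4 (6.08, SE 0.46) were higher in endoderm-like cells than in the mean of the other lineages, and DPPA4 was lower (-2.75, SE 0.53). Of the 12 primed genes 7 were higher there too, among them OTX2 (9.11, SE 0.45), ZIC2 (7.16, SE 0.52) and SFRP1 (4.99, SE 0.57), and 1 was lower. The median difference was 0.25 for the naive and 2.40 for the primed genes, beside -0.14 for all genes, again as a description.

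Within the Epi-derived cells of Day 14, the genes separated by subtype. Wild-type amnion-like cells (37 and 11 cells, with GABRP and ISL1) held 257 and 509 CPM of KHDC3L, against 5832 and 2404 CPM in epiblast-like cells. DPPA5 stood at 96.5 and 402 CPM against 3358 and 2262 CPM. KHDC1L went the other way, with 64.6 and 19.4 CPM in amnion-like and 5.40 and 3.14 CPM in epiblast-like cells. In both libraries the 2 subtypes lay apart in these directions, but KHDC1L in B2 rested on few UMIs. Its 3.14 CPM lay below the 4.71 CPM that 3 UMIs would give in those epiblast-like cells. Its 19.4 CPM lay near the 14.5 CPM that 3 UMIs would give in the amnion-like ones. With the library as a block, KHDC3L was lower in amnion-like than in epiblast-like cells by a log2 difference of -3.47 (SE 0.68, adjusted p = 5.758e-04), DPPA5 was lower by one of -3.91 (SE 0.47, adjusted p = 9.26e-07) and KHDC1L was higher by 3.26 (SE 0.53, adjusted p = 5.763e-05). These 3 of 6 genes passed, beside 10.7% of all genes. Without the block the calls of KHDC3L (-3.62) and KHDC1L (3.18) were lost and that of DPPA5 was kept. Without the Day 14 B1 library, whose partner had 11 amnion-like cells, those of KHDC3L (-2.41) and KHDC1L (2.43) were lost as well. Without the B2 library OOEP passed too, which made 4. With DESeq2 KHDC1L and DPPA5 passed, beside 905 of 10729 genes. In the whole set of libraries OOEP (-1.89, adjusted p = 0.0373), NLRP7 (-0.83) and NLRP2 (0.41) did not pass.

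Mesoderm-like cells of Day 14 (209 and 41 cells, with MIXL1 and MESP1) had 22.4 and 29.8 CPM of KHDC1L and 1248 and 533 CPM of DPPA5. KHDC1L was higher there than in epiblast-like cells by 2.10 (SE 0.47, adjusted p = 0.00260) and DPPA5 lower by a log2 difference of -1.79 (SE 0.38, adjusted p = 0.00177), which makes 2 of 6 genes beside 7.25% of all genes. Without the block the differences were 2.18 and -1.755, and neither gene passed. Neither passed with DESeq2, which called 463 of 10378 genes. Without the Day 14 B1 library 1 gene passed, and without the B2 library 4 did, OOEP and NLRP2 being higher. KHDC3L differed by -0.72 (SE 0.56), with 6301 and 671 CPM in the 2 libraries, one above and one below their epiblast-like cells. Of the 9 naive genes 1 was higher and 2 were lower in amnion-like cells, and 2 were higher and 2 lower in mesoderm-like cells. NANOG and DPPA4 were lower in both subtypes (-3.83 and -2.05 in amnion-like, -3.05 and -2.03 in mesoderm-like cells) and TBX3, a T-box factor with roles in many tissues, higher in both (6.33 and 6.22), and FGF4, a growth factor, was higher in mesoderm-like cells (2.04). Of the 12 primed genes 7 were lower and 1 higher in amnion-like cells (median -2.79), and 5 were lower and 2 higher in mesoderm-like cells (median -0.84). At Day 10 the few cells named amnion-like held 2971 CPM of KHDC1L in 3 cells and 4412 CPM in 11 cells, against 582 and 617 CPM in epiblast-like cells. They also held other markers, the amnion list summing to 1947 and 772 CPM, the mesoderm list to 484 and 989 CPM and the trophoblast list to 1146 and 629 CPM, with ISL1 at 102.5 and 12.3 CPM. Neither that difference nor the part of these markers in it was tested. A high level of KHDC1L was not particular to the amnion-like cells. Over 9 libraries of all days mesoderm-like cells held up to 2919 CPM (median 244 CPM).

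**Figure D4:**
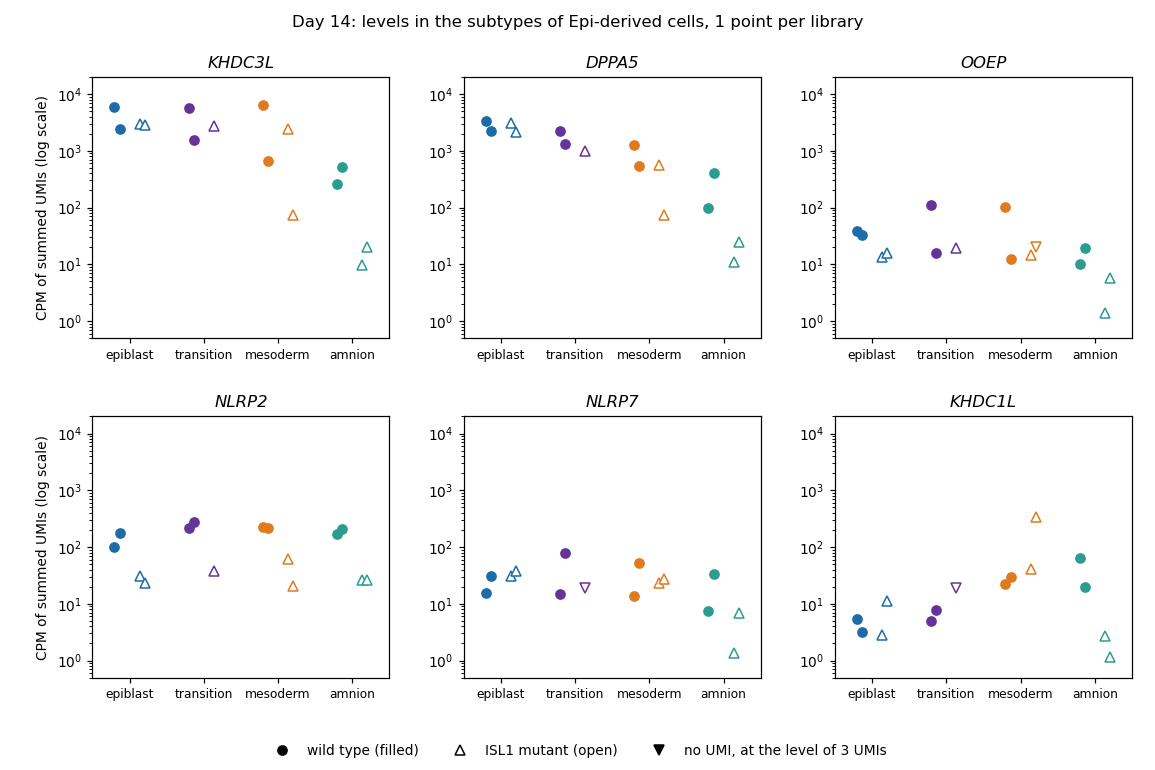
Day 14 levels in CPM of summed UMIs (log scale) in the 4 subtypes of Epi-derived cells, with 1 point per library of at least 5 cells. Filled circles are wild-type libraries, open triangles ISL1 mutant ones, and inverted triangles mark classes with no UMI at the level of 3 UMIs. KHDC3L and DPPA5 are lowest in amnion-like cells, where the mutant points lie below the wild-type points for all 6 genes.

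ISL1 mutants were compared with wild-type embryos at Day 14, class by class. In amnion-like cells KHDC3L stood at 9.59 and 20.4 CPM in the mutant libraries (138 and 50 cells) and at 257 and 509 CPM in the wild-type ones. NLRP2 stood at 26.0 and 26.1 CPM against 167 and 208 CPM. The genotypes did not overlap for either gene, nor for the other 4, and all 6 lay lower in mutants, as did 26.8% of all genes without overlap. The mutant cells were shallower, with medians of 3920 and 12668.5 UMIs per cell against 28199 and 16320 in wild type. Some mutant values were near the floor, the lowest being 1.37 CPM for OOEP and NLRP7 and 1.13 CPM for KHDC1L. In the mutant sums 3 UMIs would give 4.11 and 3.4 CPM. KHDC3L was lower in mutants by a log2 difference of -4.50 (SE 0.56, adjusted p = 0.00208) and NLRP2 by one of -2.75 (SE 0.43, adjusted p = 0.00770). These were 2 of 6 genes, both lower, beside 0.459% of all genes in either direction. KHDC1L (-4.61, SE 1.13, adjusted p = 0.0470), DPPA5 (-3.54, SE 0.63, adjusted p = 0.0151), OOEP (-1.66) and NLRP7 (-1.56) did not pass. With the batch as a block, KHDC1L and DPPA5 passed as well, which makes 4 of 6 (adjusted p = 0.00250 and 0.00479), beside 92 of 9374 genes. With DESeq2 DPPA5 passed as well, beside 96 of 6073 genes. With clusters built without integration, which left out the wild-type B2 library, KHDC1L differed by -6.11. None of the 6 passed when either mutant library was left out, and 2 and 1 passed without the wild-type B1 and B2 library. NLRP2 was lost in each of the 4, with log2 differences of -2.66 to -2.87.

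The clusters named amnion-like differed between genotypes. A cluster with cells of both genotypes held all 37 and 11 wild-type and 28 and 25 of the mutant cells, and the other mutant cells lay in clusters without wild-type cells. Within clusters of both genotypes, an alternative chosen after seeing the data, none of the 6 passed, with differences of -3.86 for KHDC3L (adjusted p = 0.0413) and -2.90 for NLRP2 (adjusted p = 0.0718). The other 4 genes were lower there too. The 12 trophoblast markers summed to 1236 and 652 CPM in mutant and 137 and 107 CPM in wild-type amnion-like cells, with 10 and 6 against 3 and 3 of them above 10 CPM, and LAIR2, PECAM1, ISM2 and GCM1 at 0 in the wild-type B2 library. The 12 extraembryonic mesenchyme markers summed to 2215 and 2246 CPM in mutants and 1107 and 1415 CPM in wild type, HGF, CCDC80 and POSTN being at 0 in both wild-type libraries. The 13 amnion markers summed to 2593 and 2850 CPM against 2854 and 1778 CPM. The 12 mesoderm markers summed to 611 and 409 CPM in mutants and 1079 and 955 CPM in wild type, with 8 of them above 10 CPM in each of the 4 libraries and MIXL1 at 0 in all but the wild-type B1 library. The 9 transition markers summed to 1002 and 1513 against 1498 and 1759 CPM and the 12 endoderm markers to 365 and 245 against 227 and 170 CPM. The 10 epiblast markers summed to 7319 and 8230 CPM in mutant and 3301 and 3687 CPM in wild-type amnion-like cells, of which IGFBP2 made 4831 and 5238 against 240 and 305 CPM, and none was at 0. Of these 10 markers 5 lay lower in mutants without overlap (POU5F1, with 326 and 627 CPM against 961 and 1546 CPM, L1TD1, UTF1, PSIP1 and HELLS), 3 lay higher (IGFBP2, IFITM1 and SNRPN) and 2 overlapped. The paper divides the amnion of Day 14 into AM-1 and AM-2 and reports KHDC3L and DPPA5 as higher in AM-1. It describes AM-2 as overrepresented in mutant embryos. The amnion-like class was not divided in this way here. The part of these differences between the cells in the result was not tested.

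In mutant epiblast-like cells (177 and 34 cells) none of the 6 genes passed, beside 0.213% of all genes, and DESeq2 called 1, beside 137 of 9606 genes. An unadjusted p under 0.05 was reached by 2 of the 6 and by 16.6% of all genes. NLRP2 was at 31.3 and 23.5 CPM, below the 101 and 178 CPM of wild type, with a log2 difference of -2.17 (SE 0.35, adjusted p = 0.0146). DPPA5, at 3050 and 2117 CPM against 3358 and 2262 CPM, differed by -0.01 (SE 0.31), and KHDC3L, at 2995 and 2825 CPM against 5832 and 2404 CPM, by -0.39 (SE 0.42), with overlapping genotypes. Within clusters of both genotypes NLRP2 differed by -2.02 (adjusted p = 0.244). POU5F1 stood at 1318 and 1758 CPM in mutant and 1324 and 1687 CPM in wild-type epiblast-like cells, but the summed epiblast list at 25050 and 19660 against 9101 and 7336 CPM, of which IGFBP2 made 15350 and 11550 against 1019 and 330 CPM. The part of this difference between the cells in the result was not tested. NLRP2 was also below wild type, without overlap, in endoderm-like cells (193 and 113 against 580 and 265 CPM, -1.44, SE 0.51, adjusted p = 0.617) and in the Epi-derived cells of Day 12 (217 and 109 against 468 and 497 CPM, -1.59, SE 0.32, adjusted p = 0.274), but neither passed. KHDC3L in endoderm-like cells stood at 84.7 and 368 CPM in mutants and 33.8 and 0 CPM in wild type (3.24, SE 0.89, adjusted p = 0.469) and did not pass. In the mutant B1 library its median and upper quartile over the 72 cells of at least 5000 UMIs were 0 and the highest cell had 3367 CPM, so a minority of cells carried it. The 8 Epi-derived markers summed to 1640 and 2081 CPM in mutant and 624 and 460 CPM in wild-type endoderm-like cells, with PTPRZ1 at 0 in the mutant B2, UTF1 in both wild-type libraries and PTPRZ1 in the wild-type B1 library, and their part in this value was not tested. IGFBP2 is among these 8 markers, and its share of the sums in endoderm-like cells was not determined. In these 2 comparisons none of the 6 genes passed, beside 0% and 0.00804% of all genes. An unadjusted p under 0.05 was reached by 2 genes in endoderm-like cells, beside 7.04% of all genes, and by 2 at Day 12, beside 10.3%. DESeq2 called none and 1, beside 16 of 15945 and 34 of 9747 genes. Mutants lay below wild type without overlap for 16.2% and 16.6% of all genes. In trophoblast-like cells none passed either (0% of all genes), 1 had an unadjusted p under 0.05 beside 12.4% of all genes, DESeq2 called none, and the genotypes overlapped for 5 of the 6, while 43.6% of all genes showed no overlap. NLRP2 there was at 47.4 and 47.2 CPM in mutants, between the 27.6 and 93.4 CPM of wild type. The 1 gene without overlap there was OOEP, with log2 differences of -1.6 in B1 and -3.2 in B2. OOEP also lay below wild type without overlap in epiblast-like (-1.5 and -1.0), endoderm-like (-0.5 and -0.7) and Day 12 Epi-derived cells (-0.7 and -3.2). It passed in none of these. Over all genes 20.9% lay so in trophoblast-like and 25.8% in epiblast-like cells. All these comparisons share the 2 wild-type libraries of their day.

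**Figure D5:**
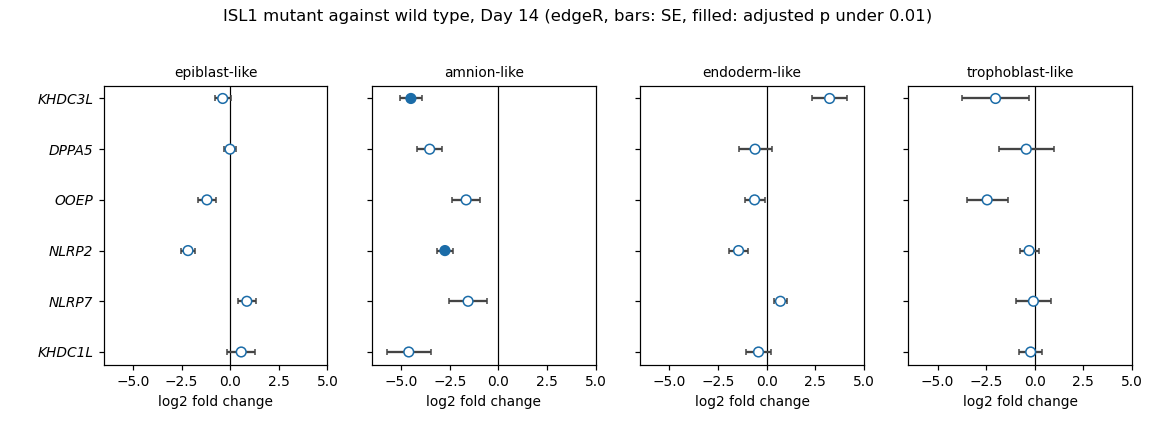
Log2 fold changes of ISL1 mutant against wild-type cells of Day 14 in 4 classes, from edgeR on UMIs summed per library. Bars are SE, filled points have an adjusted p under 0.01, and the line marks no change. KHDC3L and NLRP2 in amnion-like cells, at -4.50 and -2.75, are the 2 filled points.

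From cell to cell, KHDC3L and DPPA5 went together. In thinned Epi-derived cells their Spearman correlation was 0.569 to 0.846 (median 0.726) in the 10 libraries with at least 50 such cells, and 0.303 to 0.567 in epiblast-like cells of 8 libraries, where differences between subtypes are left out. KHDC3L with OOEP came next, with a median of 0.251 in Epi-derived and 0.174 in epiblast-like cells. KHDC1L had medians of -0.132 to KHDC3L and -0.136 to DPPA5 in Epi-derived cells, over libraries most of which hold few cells with it. In the wild-type Day 10 libraries, where most cells have it, these were -0.323 and -0.394 to KHDC3L and -0.322 and -0.396 to DPPA5 over Epi-derived cells, and -0.024 in both and 0.022 and 0.008 within epiblast-like cells. Its medians to the other genes lay between -0.029 and 0.056. Cells of a library share depth and processing, and these values are descriptions.

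Over the 41 sums of a lineage in a library, 949 genes with a symbol and a level of at least 10 CPM in at least 2 sums were ranked by the Pearson correlation of their log2 CPM with each gene. DPPA5 and KHDC3L were nearest to each other (0.967), followed for both by POU5F1 (0.965 and 0.951), a gene used to name the Epi-derived cells. The nearest genes to KHDC1L were TMEM150C (0.890), DPPA3 (0.884) and CHP1 (0.840), and its correlation with KHDC3L was 0.219. OOEP was nearest to TBC1D8 (0.880), SH3BGRL2 (0.878) and NLRP2 (0.872), NLRP2 to OOEP, NLRP7 (0.839) and FABP5 (0.835), and NLRP7 to OOEP (0.862), SYNE2 (0.858) and EPCAM (0.854). The sums share libraries and lineages and are not independent.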

How the data were processed

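Per the labels and the study's methods, the authors counted UMIs from 10x v3 3′ libraries with Cell Ranger 3.1.0 (their processing notes), filtered cells and removed free RNA with SoupX. The deposited corrected values are expected counts, that is UMI counts less an estimate of free RNA, already whole and not scaled, and the deposited uncorrected values are raw counts. The correction removed 0.196% to 8.77% of the UMIs of a library. The genome build is not printed here because no coordinate was used.

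The 6 genes and the gene lists were chosen with earlier results of these data known, and the lists come in part from the study's tables on these cells. Shares and medians of all genes printed beside theirs are thus descriptions. The genes named are the 6, up to 4 genes per list that passed, largest change first, and the 3 genes most like each of the 6. The naive list held 18 and the primed list 15 genes, and 11 maternal-effect genes were looked for.

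Cells of each day were clustered with Seurat 5.3.0 (integration by reciprocal PCA on 5000 features and 30 dimensions, then a graph of neighbours built on the UMAP, at resolution 0.8 and seed 42) with both genotypes together, and the Epi-derived cells again, leaving the 6 genes out. A cluster took the name of the list with the highest mean marker score, among lists with 3 markers in at least 25% of the cells. For lineages a lead of 0.1 over the lists of other lineages was needed. The name was withdrawn where another list had more markers among the 10 leading genes. This naming rule took its last form after clusters had been looked at. Clusters without a name hold 892 of 33330 cells, but 219 of 658 and 255 of 670 cells of the wild-type Day 10 libraries. Of the 3041 Epi-derived cells 372 received no name of a subtype, with 124 of 483 in the mutant Day 14 B1 library. Cells without a name did not enter the comparisons. Scrublet (scanpy 1.11.5) marked 0% to 2.38% of the cells of a library as doublets, which were kept.

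UMIs were summed per class and library, the library being the replicate, for classes of at least 5 cells. Sums were compared with edgeR 4.0.16 (a two-sided quasi-likelihood F test with TMM factors, after filterByExpr, at a Benjamini-Hochberg adjusted p under 0.01 over all genes tested), with a library block where classes of the same libraries are compared. SE is the log2 change divided by the root of F. The paper describes the Day 14 embryos as collected in 2 batches. It does not state whether the libraries of a group were grown apart, so p-values measure the spread between libraries. Each fit held all libraries with the classes compared, of both genotypes and all days. The spread was estimated over all these groups and not from the compared libraries alone, also in the tests of wild-type cells. On simulated data the fit recovered 54.0% to 83.0% of the genes changed by 3 on the log2 scale and 0% to 13.0% of those changed by 1. Alternatives were uncorrected counts, DESeq2 1.42.0, RLE factors, no filter, clusters without integration, classes of at least 20 cells, the batch as a block, and each library left out. Clusters with cells of both genotypes were an alternative chosen after seeing the data. The batch of the labels pairs libraries across groups. Deviations of same-batch libraries from their group means correlated with a median of 0.03 in trophoblast-like, 0.04 in Epi-derived and -0.01 in endoderm-like cells over 10 pairs of groups each, 2 of them above 0.1 in each class.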

Additional observations from a re-analysis of the deposited data

Results flagged for a closer look

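Between the genotypes of Day 14, 2 of the 6 genes differed in opposite directions in amnion-like and endoderm-like cells, every mutant library lying below the wild-type ones in the former and above them in the latter. Such a pattern, in one order or the other, was seen for 4.45% of all genes. KHDC3L passed the test in amnion-like cells alone and NLRP7 in neither class. For KHDC3L the mean log2 difference of the 2 classes came to -8.40, where the endoderm-like value of a wild-type library with no UMI was set to 3 UMIs, and for NLRP7 to -3.09. Neither difference was tested, and only 11 endoderm-like cells came from the mutant B2 library. The Epi-derived markers summed to more in mutant endoderm-like cells (1640 and 2081 against 624 and 460 CPM), and their part was not tested. Of these markers 6 and 6 stood above 10 CPM in mutant and 6 and 5 in wild-type libraries. IGFBP2, which was higher in mutant epiblast-like and amnion-like cells, is among them, and its share of these sums was not determined.

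Clusters that received no name also held transcripts of the 6 genes, above what 3 UMIs would give. In the wild-type Day 10 libraries these clusters had 219 cells (B1) and 255 cells (B2). NLRP2 stood there at 894 and 757 CPM and NLRP7 at 546 and 726 CPM, the NLRP7 values lying above those of every named lineage of the same libraries, endoderm-like cells (458 and 542 CPM), Epi-derived cells (384 and 547 CPM) and trophoblast-like cells (141 and 312 CPM). KHDC1L stood at 429 and 419 CPM, OOEP at 39.3 and 45.5 CPM, KHDC3L at 99.0 and 9.29 CPM and DPPA5 at 43.7 and 5.27 CPM. The 12 trophoblast markers summed to 4349 and 3878 CPM in these cells, below the 10430 and 7745 CPM of the trophoblast-like cells.

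At Day 14 the unnamed clusters held less. In the wild-type B1 library (61 cells) KHDC1L stood at 61.1 CPM, KHDC3L and NLRP2 at 14.7 CPM each and OOEP at 4.53 CPM. In the mutant B1 library (242 cells) KHDC1L was at 141 CPM, NLRP2 at 16.9 CPM, NLRP7 at 4.05 CPM, DPPA5 at 2.70 CPM and OOEP at 1.69 CPM. In the mutant B2 library (102 cells) KHDC1L was at 140.0 CPM, NLRP2 at 16.7 CPM and NLRP7 at 4.57 CPM. No group of samples had enough libraries for a test of a single library standing apart.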

How the results depend on the processing

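The number of the 6 genes that passed moved by over 1.5 times as follows, and the cause was not tested where none is named. With DESeq2 it was 1 instead of 0 in epiblast-like cells between Day 10 and Day 12, 4 instead of 0 in trophoblast-like cells over time, 1 instead of 0 for the interaction, 0 instead of 2 in mesoderm-like cells, and 1 instead of 0 in mutant epiblast-like cells and in mutant Epi-derived cells of Day 12. With no filter on low counts the number was 3 in epiblast-like cells at Day 12, 1 in endoderm-like and 2 in trophoblast-like cells over time, 4 in mesoderm-like cells, and in mutants 1 in epiblast-like, 4 in amnion-like, 1 in endoderm-like and 3 in Epi-derived cells of Day 12. Without the filter the calls over all genes were, in the same order, 275 of 17337, 302 of 15945, 308 of 18960 and 1088 of 18097. In mutants they were 333 of 17337, 439 of 15999, 120 of 15945 and 332 of 18229. Smaller moves with DESeq2 were 5 instead of 4 in epiblast-like cells between Day 10 and Day 14, 2 instead of 3 in amnion-like against epiblast-like cells and 3 instead of 2 in mutant amnion-like cells. Clusters without integration gave 2 in epiblast-like cells between Day 10 and Day 14, 4 in mesoderm-like and 3 in mutant amnion-like cells. They also left the wild-type Day 14 B2 library with no epiblast-like, 4 mesoderm-like and 3 amnion-like cells, which is too few to enter, so that setting left out that library as well. Classes of at least 20 cells gave 1 in mutant epiblast-like and 1 in mutant amnion-like cells, and clusters of both genotypes 0 in the latter. Of the log2 changes of single genes under these alternatives, 607 kept their direction and their side of the threshold, 35 newly passed it, 12 no longer passed and 6 reversed. Most shares of cells with a UMI moved out of their counting interval without thinning.

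The library block, which pairs cells of one library, mattered most within Day 14. Without it 1 of 6 genes passed in amnion-like and 0 in mesoderm-like cells, and NLRP7 in mesoderm-like cells reversed to 0.33. The batch as a replicate block gave 4 in mutant amnion-like cells and changed no other call. With it DPPA5 reversed to -0.27 in endoderm-like cells over time and to 0.0082 in mutant epiblast-like cells, and NLRP7 to 0.17 in mutant trophoblast-like cells. DPPA5 also reversed to -0.16 for the interaction with DESeq2 and to 0.17 in mutant Epi-derived cells of Day 12 with at least 20 cells. None of these values had passed.

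With each library left out in turn, its group had 1 library, which was assumed to vary like the other groups, and the number passing ranged from 0 to 4 in epiblast-like cells and 0 to 1 in trophoblast-like cells between Day 10 and Day 14, from 2 to 4 for Epi-derived and for endoderm-like cells of Day 14 against the rest, from 1 to 4 in amnion-like and in mesoderm-like cells, and from 0 to 2 in mutant amnion-like cells. Log2 changes that crossed 0, none of which had passed, ranged in endoderm-like cells over time from -2.42 to 0.29 for KHDC1L, -1.08 to 0.16 for NLRP2 and -2.88 to 0.99 for DPPA5, from -1.38 to 1.53 for DPPA5 in the interaction, and in mesoderm-like cells from -1.49 to 1.27 for OOEP and -0.35 to 0.64 for NLRP7. In mutant epiblast-like cells they ranged from -0.99 to 0.46 for KHDC3L, -0.90 to 1.32 for KHDC1L and -0.38 to 0.36 for DPPA5, and in mutant endoderm-like cells from -1.20 to 1.52 for KHDC1L and -1.42 to 2.46 for DPPA5. In mutant trophoblast-like cells they ranged from -3.83 to 3.02 for KHDC3L, -0.76 to 0.19 for KHDC1L, -0.87 to 0.69 for NLRP2, -0.89 to 1.78 for NLRP7 and -2.66 to 2.74 for DPPA5, and in mutant Epi-derived cells of Day 12 from -1.13 to 0.17 for DPPA5.

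Over all genes, edgeR and DESeq2 called 7 and 58 genes in epiblast-like cells at Day 12, 135 and 238 at Day 14, 2 and 35 in endoderm-like and 96 and 1518 in trophoblast-like cells over time, 2 and 52 for the interaction, and 785 and 463 in mesoderm-like cells. In mutants they called 22 and 137 genes in epiblast-like, 43 and 96 in amnion-like, 0 and 16 in endoderm-like and 0 and 203 in trophoblast-like cells, and 1 and 34 in Epi-derived cells of Day 12. Without the block 379 instead of 1158 genes were called in amnion-like and 185 instead of 785 in mesoderm-like cells. Uncorrected counts gave 0.912 to 1.71 times the corrected CPM of the 6 genes (median 0.994 over 395 values, 2 of them above 1.5). Values that rested on few UMIs were left out of these ratios, so they do not cover the lowest levels. The median log2 difference of all genes moved from -0.14 to -0.04 with RLE factors and to 0.14 with DESeq2 for endoderm-like cells of Day 14 against the rest, and from -0.06 to 0.36 with DESeq2 in amnion-like cells. With 2 libraries per group and classes of as few as 11 cells, small changes could not be seen, so a gene that did not pass may still differ.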
